A study of Mus musculus with 25 samples.

Results

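The microRNAs (miRNAs) mmu-miR-383-5p, mmu-miR-184-3p, mmu-miR-3065-5p and mmu-miR-137-3p of mouse liver vesicles, written below without the species prefix mmu, were followed through 5 ages. They are 4 of the 1493 entries of the deposited count table, and they were chosen by name because their counts differed between 14 months and 6 weeks. The libraries came from small extracellular vesicles (membrane-bound particles that cells release) of liver tissue of C57BL/6J wild-type mice. The mice were aged 1 week, 6 weeks, 6 months, 12 months and 14 months, with 5 libraries at each age and 25 in all. Each library is taken as 1 mouse and named by the number in its title. The labels give equal numbers of males and females but no sex per mouse, the tissue had been frozen, and vesicles were spun down after enzymatic dissociation. Batch and age coincide in the labels, so differences in handling and differences in age cannot be told apart. A lower level in the vesicles of a whole tissue cannot be separated from a smaller share of vesicles from the cells that make the miRNA.

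A miRNA is a short RNA that an Argonaute protein holds and that pairs with messenger RNAs, mainly through its seed (bases 2 to 8), which lowers their translation and stability. It is cut from a hairpin precursor whose arms are called 5p and 3p, and usually 1 arm is kept. None of the 4 is a typical liver miRNA. In mammals miR-137 is best known from neurons, where it limits proliferation and shapes maturation, and miR-184 is abundant in the cornea and lens epithelium of the eye. The miR-383 gene is known from testis, ovary and brain, and miR-3065 is cut from the strand opposite to miR-338, a miRNA of oligodendrocytes.

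The mature sequences of 3 of the 4, those that the RefSeq tables matched, are shown because they tell these 3 apart from each other. They are 5′ to 3′ from RefSeq on GRCm38.p6, with the seed in capitals.
miR-184-3p: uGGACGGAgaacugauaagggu
miR-3065-5p: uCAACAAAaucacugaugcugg
miR-137-3p: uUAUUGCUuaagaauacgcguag
The 3 seeds differ from each other, and no other of the 1679 mature names in the RefSeq table carries any of them. No entry of the count table lay within 0.3 log2 units of any of the 4 miRNAs in every library, so none of them repeats the counts of another miRNA.

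On mm10, Mir383 lies on chromosome 8 from 38252133 to 38252202, in an intron of Sgcz and on the same strand as this muscle and nerve membrane protein gene. Mir184 lies on chromosome 9 from 89802260 to 89802328, and GENCODE annotates no other gene over it. Mir3065 lies on chromosome 11 from 120014767 to 120014853, in an intron of the kinase gene Aatk but on the opposite strand. Mir137 lies on chromosome 3 from 118433857 to 118433929, in an exon of the noncoding transcript Gm26871.

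Library totals ran from 641579 to 6888928 counts, and the 6-week libraries were the shallowest as a group (641579 to 1738208). The hepatocyte miRNA miR-122-5p held 53.9% to 67.5% of the counts of every library. Levels are given as counts per 1000000 (CPM) scaled with TMM factors, which compare libraries over most of their miRNAs. Those factors were 1.30 to 1.78 at 1 week, so CPM values at 1 week are lower than shares of raw counts. Shares of pooled raw counts are therefore given too, with 95% exact (Clopper-Pearson) intervals that cover counting error only. A library without a count allows up to 3 counts, which came to 4.89 CPM at the lowest depth and to 0.283 CPM at the highest. Means are followed by the SD (n = 5 libraries per age) and log2 fold changes by their approximate SE.

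By mean CPM over the 25 libraries miR-137-3p ranked 101st, miR-383-5p 226th, miR-184-3p 270th and miR-3065-5p 296th of the 391 entries abundant enough to be tested. Their ranks among all 1493 entries were the same. The miRNA miR-137-3p had a count in 25 of 25 libraries, miR-184-3p in 23, miR-3065-5p in 22 and miR-383-5p in 20. Of the 5 libraries that lacked miR-383-5p, 3 were of 12 months and 2 of 14 months. The 2 without miR-184-3p were of 6 weeks, and the 3 without miR-3065-5p were 2 of 1 week and 1 of 6 weeks.

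**Figure D1:**
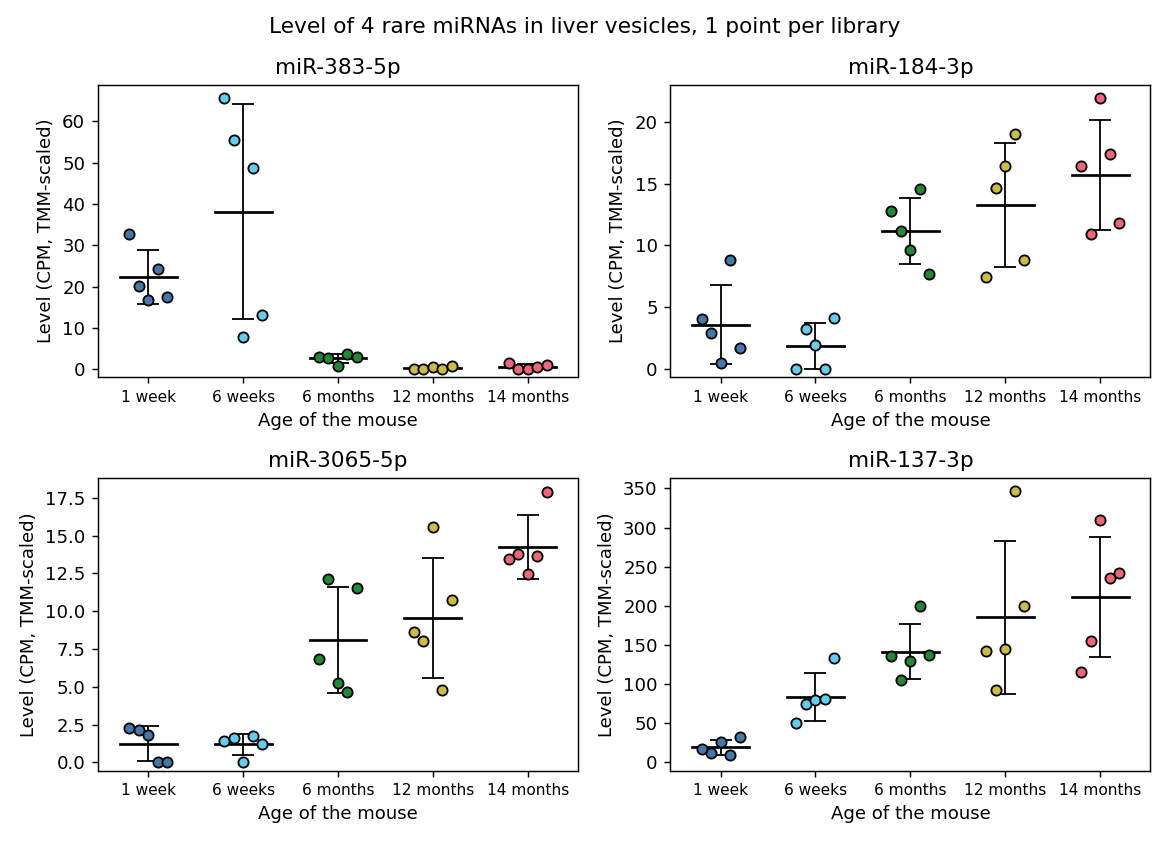
Level of each miRNA in CPM with TMM factors (vertical axis, linear, a separate scale in each panel) at the 5 ages, 1 point per library; the long bar is the mean and the whiskers are the SD, stopped at 0. miR-383-5p sits between 7.74 and 65.6 CPM at 1 and 6 weeks and at 3.65 CPM or less from 6 months on, while the other miRNAs have their highest mean at 14 months.

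The level of miR-383-5p was high in the young and close to 0 from 6 months on. Its raw counts were 144, 75, 65, 80 and 186 at 1 week and 47, 34, 8, 55 and 22 at 6 weeks. They were 3, 3, 1, 7 and 3 at 6 months, 0, 0, 1, 0 and 2 at 12 months, and 2, 0, 0, 1 and 3 at 14 months. Every library of 6 months or older thus lay below every library of 1 or 6 weeks in CPM. Mean levels were 22.3 ± 6.51 CPM at 1 week, 38.1 ± 26.1 CPM at 6 weeks, 2.63 ± 1.04 CPM at 6 months, 0.219 ± 0.309 CPM at 12 months and 0.607 ± 0.651 CPM at 14 months. The 6-week libraries fell into a high part (48.7 to 65.6 CPM, mice 6, 7 and 9) and a low part (7.74 and 13.1 CPM, mice 8 and 10), so their order with 1 week is not settled.

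The ages at which miR-383-5p was nearly missing were, as groups, sequenced more deeply than 6 weeks. Single libraries overlapped in depth, with 641579 to 1738208 counts at 6 weeks, 839642 to 3778798 at 12 months and 1543907 to 3989776 at 14 months. The 12-month and 14-month libraries held 10899141 and 12286951 counts in all, against 5234361 for the 6-week libraries, and still had 3 and 6 counts of miR-383-5p where the 6-week libraries had 166. As a share of pooled raw counts miR-383-5p was 32.8 per 1000000 at 1 week (30.2 to 35.7), 31.7 at 6 weeks (27.1 to 36.9), 2.41 at 6 months (1.40 to 3.85), 0.275 at 12 months (0.0568 to 0.804) and 0.488 at 14 months (0.179 to 1.06). The partner arm miR-383-3p had 6 counts at 1 week and 3 at 6 weeks, in 5 libraries. It had no count in the 15 older libraries, where a count of 0 allows up to 0.484 CPM at 6 months, 0.320 CPM at 12 months and 0.303 CPM at 14 months.

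For miR-184-3p the low ages were 1 and 6 weeks. The raw counts were 18, 11, 2, 29 and 18 at 1 week and 0, 2, 2, 0 and 7 at 6 weeks. From 6 months on every library had a count, with 13, 12, 11, 28 and 8 at 6 months, 6, 20, 37, 36 and 27 at 12 months, and 22, 15, 51, 33 and 35 at 14 months. Mean levels were 3.61 ± 3.20 CPM at 1 week, 1.87 ± 1.88 CPM at 6 weeks, 11.2 ± 2.68 CPM at 6 months, 13.3 ± 4.99 CPM at 12 months and 15.7 ± 4.45 CPM at 14 months. The 15 older libraries, at 7.41 to 21.9 CPM, all exceeded the 6-week libraries, at 0 to 4.16 CPM, but overlapped the 1-week library of mouse 5, at 8.80 CPM. Neighbours in the order of the means overlapped throughout. The share of pooled raw counts was 4.66 per 1000000 at 1 week (3.68 to 5.81), 2.10 at 6 weeks (1.05 to 3.76), 10.2 at 6 months (7.97 to 12.8), 11.6 at 12 months (9.63 to 13.8) and 12.7 at 14 months (10.8 to 14.9). At the depth of the shallowest library the older libraries would have held 4.49 to 13.1 counts of it.

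The rarest of the 4, miR-3065-5p, had a similar course. Its raw counts were 10, 8, 7, 0 and 0 at 1 week and 1, 1, 0, 2 and 2 at 6 weeks, so that no 6-week library exceeded the limit of 3 counts. They were 7, 13, 6, 9 and 12 at 6 months, 7, 11, 35, 9 and 33 at 12 months, and 18, 19, 29, 26 and 53 at 14 months. All 15 older libraries, at 4.69 to 17.9 CPM, lay above the observed values of the 10 younger ones, at 2.27 CPM or less. The limit of 3 counts in the shallowest 6-week library, mouse 7, was 4.89 CPM. It exceeds the older libraries of mouse 14 (4.69 CPM) and mouse 19 (4.76 CPM). Mouse 7 had 1 count, which allows more than a count of 0 does. The separation from 6 weeks is thus not resolved for at least these older libraries. Mean levels were 1.24 ± 1.15 CPM at 1 week, 1.20 ± 0.705 CPM at 6 weeks, 8.09 ± 3.50 CPM at 6 months, 9.55 ± 3.99 CPM at 12 months and 14.3 ± 2.11 CPM at 14 months. The 14-month libraries were close together, with a coefficient of variation of 14.8%, and 1 of them lay above all libraries of 12 months. As a share of pooled raw counts miR-3065-5p was 1.49 per 1000000 at 1 week (0.966 to 2.20), 1.15 at 6 weeks (0.421 to 2.49), 6.65 at 6 months (4.89 to 8.84), 8.72 at 12 months (7.05 to 10.7) and 11.8 at 14 months (9.96 to 13.9). Its partner arm miR-3065-3p had 1 count at 1 week and 0 at 6 weeks, then 10 counts at 6 months, 15 counts at 12 months and 42 counts at 14 months, with a count in 12 of the 15 older libraries.

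The most abundant, miR-137-3p, was already higher at 6 weeks than at 1 week. The raw counts ran from 33 to 348 at 1 week with a median of 76, from 36 to 224 at 6 weeks with a median of 82, and from 113 to 383 at 6 months with a median of 143. They ran from 115 to 655 at 12 months with a median of 326 and from 155 to 722 at 14 months with a median of 449. In CPM the single libraries had 17.2, 12.3, 25.8, 10.0 and 32.8 at 1 week, and 50.2, 75.1, 79.4, 80.5 and 133 at 6 weeks. Each 6-week library thus lay above each 1-week library, as for 28.6% of tested entries, with 28.6% lower without overlap. The older libraries had 135, 105, 130, 199 and 137 CPM at 6 months, 142, 92.3, 145, 346 and 200 CPM at 12 months, and 116, 155, 310, 236 and 243 CPM at 14 months. Means were 19.6 ± 9.52 CPM at 1 week, 83.7 ± 30.3 CPM at 6 weeks, 141 ± 34.9 CPM at 6 months, 185 ± 97.9 CPM at 12 months and 212 ± 76.8 CPM at 14 months, and neighbouring adult ages overlapped. The share of pooled raw counts was 36.0 per 1000000 at 1 week (33.2 to 39.0), 91.5 at 6 weeks (83.5 to 100.1), 131 at 6 months (123 to 140), 169 at 12 months (161 to 176) and 184 at 14 months (176 to 191). The distance between 6 weeks and 1 week was thus smaller in raw shares than in TMM-scaled CPM. Of the 15 older libraries 11 lay above all 6-week libraries, the highest of which was mouse 10 at 133 CPM. The partner arm miR-137-5p had 2 counts in the whole series, both at 6 weeks.

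**Figure D2:**
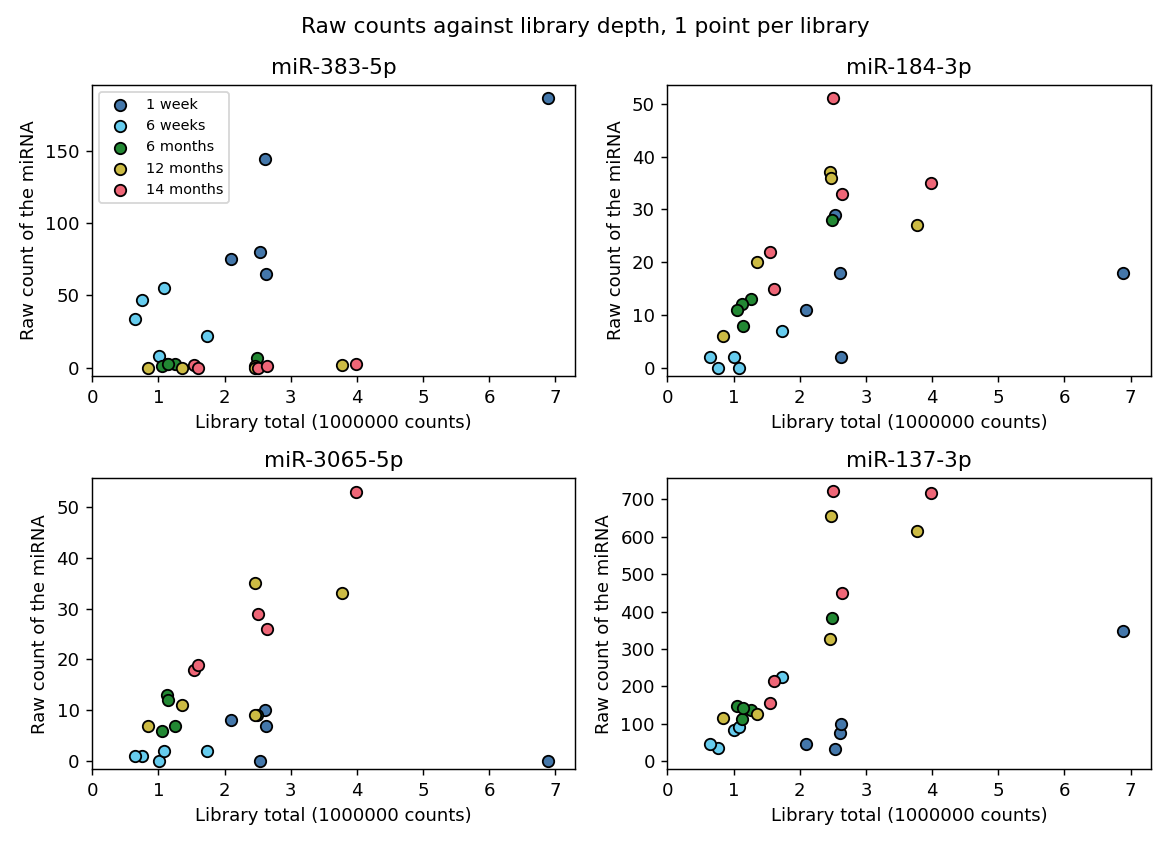
Raw count of each miRNA (vertical axis, linear) against the library total in units of 1000000 counts (horizontal axis), 1 point per library, coloured by age. The counts of miR-137-3p reach 722 in the deeper adult libraries, whereas miR-383-5p stays at 7 counts or less in every library of 6 months or older at any depth.

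The comparison of 14 months with 6 weeks chose these miRNAs, so its values are a description. The fitted log2 fold change was -5.83 ± 0.66 for miR-383-5p, 2.93 ± 0.63 for miR-184-3p, 3.56 ± 0.75 for miR-3065-5p and 1.33 ± 0.35 for miR-137-3p. In that comparison 3.84% of the 391 tested entries passed the edgeR threshold (adjusted p below 0.05), 3.32% higher and 0.512% lower, and nothing is read from the place of the 4 miRNAs among them. Without mouse 10, which held 7 of the 11 counts of miR-184-3p at 6 weeks, its value was 3.70. The 14-month libraries were deeper than the 6-week ones, and with log2 library total in the model miR-137-3p was at 0.58 ± 0.32.

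Much of the difference was in place at 6 months. Against 6 weeks, the log2 fold change at 6 months was -3.77 ± 0.57 for miR-383-5p, 2.45 ± 0.64 for miR-184-3p, 2.72 ± 0.79 for miR-3065-5p and 0.75 ± 0.35 for miR-137-3p. At 14 months against 12 months the fitted values were about as small as their errors, at 0.86 ± 1.02 for miR-383-5p, 0.23 ± 0.49 for miR-184-3p, 0.56 ± 0.54 for miR-3065-5p and 0.19 ± 0.34 for miR-137-3p. These comparisons share the 6-week or 14-month libraries that chose the miRNAs and are given without a test. Of the 15 libraries of 6 months and older, all lay, in observed CPM, on 1 side of all 6-week libraries for miR-383-5p (below) and for miR-184-3p and miR-3065-5p (above), as they did for 2.56% of tested entries (0.767% below and 1.79% above). Against 1 and 6 weeks together 0.512% of entries were lower without overlap, miR-383-5p among them, and 1.53% higher, miR-3065-5p among them. These separations too use libraries that chose the miRNAs, so the place of miR-383-5p, miR-184-3p and miR-3065-5p is partly built in.

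The ages outside the comparison that chose the miRNAs were 1 week, 6 months and 12 months. Earlier results of these data were known when the choice was made, so the tests below are not wholly independent of it. The filter on low counts and the estimate of the spread still used all 25 libraries. With only the 2 compared ages in the fit, the filter removed miR-3065-5p from both comparisons with 1 week. At 6 months against 1 week, miR-383-5p was lower (2.63 ± 1.04 CPM against 22.3 ± 6.51 CPM), with a log2 fold change of -3.02 ± 0.56 (edgeR quasi-likelihood test, Benjamini-Hochberg adjusted p = 3.32e-05). Higher at 6 months than at 1 week were miR-184-3p (1.67 ± 0.52, adjusted p = 0.00562), miR-3065-5p (2.71 ± 0.63, adjusted p = 0.000444) and miR-137-3p (2.83 ± 0.37, adjusted p = 1.55e-07). All 4 passed, in a comparison in which 74.7% of tested entries did, 36.8% higher and 37.9% lower, so a call here is common. The 5 libraries of 6 months did not overlap the 5 of 1 week for miR-383-5p, miR-3065-5p and miR-137-3p, and of tested entries 29.2% were higher and 29.4% lower without overlap. For miR-184-3p 4 of 5 libraries of 6 months lay above all of 1 week.

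The call of miR-184-3p at 6 months rested on the scaling. With library totals alone it was at 0.91 and did not pass (adjusted p = 0.117), and without mouse 5 of 1 week, its highest young library, it was at 2.26 (adjusted p = 0.000517). Library totals alone put the median of all tested entries at -0.66, against 0.12 with TMM factors, and the calls at 91 higher and 188 lower, against 144 higher and 148 lower. Under that scaling miR-3065-5p was at 1.90 (adjusted p = 0.0132), miR-137-3p at 2.03 (adjusted p = 9.03e-06) and miR-383-5p at -3.86 (adjusted p = 1.24e-06).

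At 12 months against 1 week the same directions were found. The 3 counts of miR-383-5p at 12 months against 550 at 1 week gave a ratio of TMM-scaled levels of 0.0151 (95% counting interval 0.00310 to 0.0443), beside raw shares of 0.275 and 32.8 per 1000000, which lie farther apart, and the fitted log2 fold change was -5.94 ± 0.72 (edgeR adjusted p = 4.71e-08). Without mouse 20, which held 2 of the 3 counts, it was at -6.67. The log2 fold change was 1.92 ± 0.51 for miR-184-3p (adjusted p = 0.00160), 2.99 ± 0.62 for miR-3065-5p (adjusted p = 0.000112) and 3.22 ± 0.37 for miR-137-3p (adjusted p = 2.27e-08). All 4 passed where 71.6% of tested entries did, 33.2% higher and 38.4% lower. Libraries of 12 months and 1 week did not overlap for miR-383-5p, miR-3065-5p and miR-137-3p, as for 24.0% of tested entries higher and 29.2% lower. This comparison shares its 1-week libraries with the one before it. Without mouse 5 of 1 week miR-184-3p was at 2.60, and with library totals alone it was at 1.15 (adjusted p = 0.0426).

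The only adult ages outside the comparison that chose the miRNAs were 6 and 12 months. At 12 months against 6 months none of the 4 passed. The filter kept miR-383-5p there only with libraries of other ages in the fit. For miR-383-5p the counts were 0, 0, 1, 0 and 2 at 12 months, against 3, 3, 1, 7 and 3 at 6 months. No library of 12 months reached any of 6 months in observed CPM, as for 0.256% of tested entries (lower without overlap). The limit of 3 counts was 3.71 CPM in mouse 16 and 2.20 CPM in mouse 17 of 12 months, so a separation from the 6-month libraries, at 0.877 to 3.65 CPM, is not resolved at this depth. The pooled ratio of TMM-scaled levels was 0.116 (95% counting interval 0.0219 to 0.403) and the fitted log2 fold change -2.92 ± 0.87, with an unadjusted p of 0.00254 and an edgeR adjusted p = 0.358. The value was -3.64 without mouse 20 of 12 months. The other 3 had log2 fold changes of 0.25 ± 0.50 (miR-184-3p, adjusted p = 0.908), 0.28 ± 0.58 (miR-3065-5p, adjusted p = 0.911) and 0.39 ± 0.34 (miR-137-3p, adjusted p = 0.849). In edgeR 0% of the 391 entries passed and 28 had an unadjusted p below 0.05, and DESeq2 called 0.

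**Figure D3:**
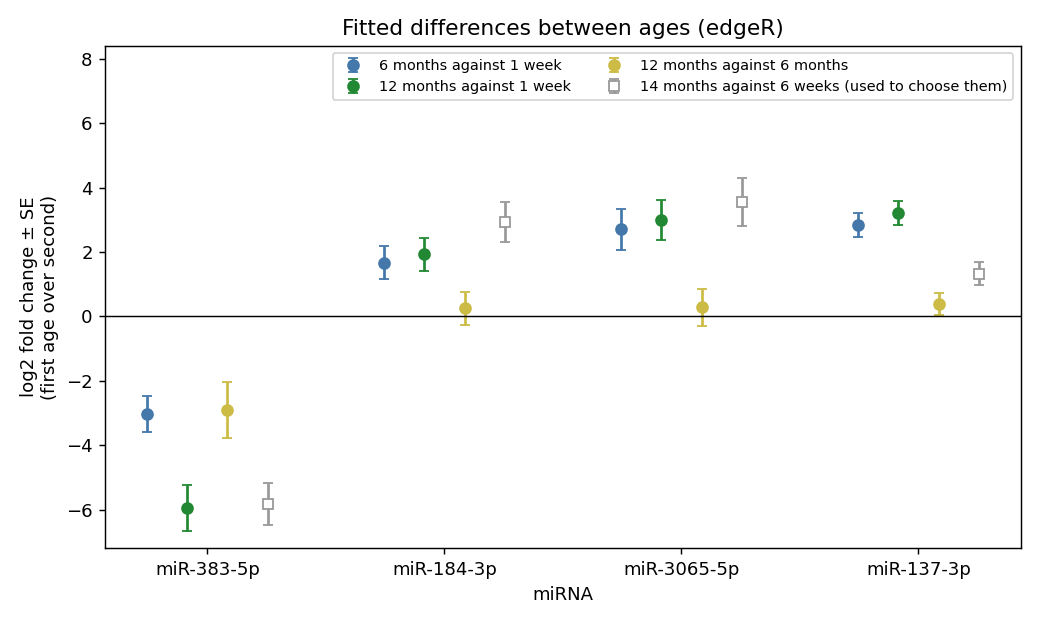
Fitted log2 fold change of each miRNA with its SE (vertical axis, first-named age over second) in 4 comparisons; open squares mark 14 months against 6 weeks, which chose the miRNAs. Filled points lie below 0 for miR-383-5p in all 3 remaining comparisons, and for the other 3 miRNAs the values of 12 months against 6 months lie between 0.25 and 0.39.

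Libraries of 1 age differed more for some of the 4 than for others. The biological coefficient of variation in the fit was 51.5% for miR-383-5p, 50.0% for miR-3065-5p, 46.1% for miR-184-3p and 38.3% for miR-137-3p. The trend of all entries at the same abundance was 45.1%, 48.1%, 46.4% and 35.0% in that order. The fit draws each value towards this trend, so their closeness to it cannot show that the spread was ordinary.

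The sequences of miR-3065-5p and miR-338-3p bear on how miR-3065-5p can be counted, because they come from opposite strands of 1 place. They are shown with their complementary run of 21 bases in capitals.
miR-3065-5p: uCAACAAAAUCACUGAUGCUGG
miR-338-3p: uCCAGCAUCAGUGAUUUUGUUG
The genome coordinates of the mature forms overlap by 21 of their 22 bases (chromosome 11, 120014780 to 120014801 and 120014781 to 120014802). A count made without regard to strand could not tell them apart, and strand use is not given in the sources used here.

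The mean level of miR-338-3p was 36.8 ± 2.31 CPM at 1 week, 70.7 ± 19.5 CPM at 6 weeks, 94.7 ± 6.60 CPM at 6 months, 122 ± 23.1 CPM at 12 months and 98.0 ± 22.6 CPM at 14 months. The deepest library, mouse 27 of 1 week, had 0 counts of miR-3065-5p beside 377 of miR-338-3p. The count of miR-3065-5p as a percentage of that of miR-338-3p was 0 to 6.02% at 1 week, 0 to 3.45% at 6 weeks, 4.71 to 12.4% at 6 months, 3.75 to 12.5% at 12 months and 12.1 to 18.2% at 14 months. Both miRNAs were higher at 6 and 12 months than at 1 week, and whether counts passed between the strands was not tested. At 6 months against 1 week miR-338-3p rose by 1.36 ± 0.20 (edgeR adjusted p = 1.07e-06) and at 12 months against 1 week by 1.74 ± 0.20 (adjusted p = 2.27e-08), while at 12 months against 6 months it was at 0.37 ± 0.20 and did not pass.

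**Figure D4:**
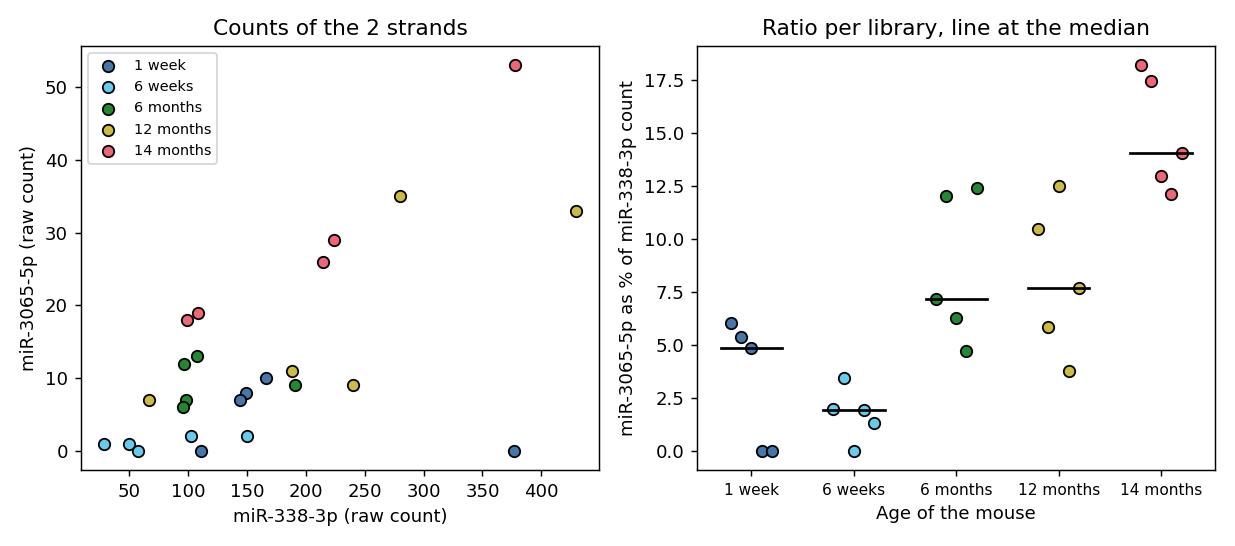
Left, raw count of miR-3065-5p (vertical axis) against that of miR-338-3p from the opposite strand (horizontal axis), 1 point per library coloured by age; right, the first as a percentage of the second at each age, with a line at the median. The median runs through 4.86, 1.94, 7.14, 7.69 and 14.0% from the youngest to the oldest age.

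Other miRNAs of the tissues in which these 4 are known were followed as lists. Of 17 nervous system miRNAs 15 are in the table and 4 were tested. At 6 months against 1 week miR-218-5p of motor neurons (-3.08 ± 0.41, edgeR adjusted p = 2.54e-07) and miR-128-3p of brain (-1.26 ± 0.23, adjusted p = 3.46e-05) fell and none rose, in a comparison in which 37.9% of all tested entries fell. The median was -0.50, against 0.12 for all tested entries. The same 2 fell at 12 months against 1 week, as did 38.4% of all entries (median -0.52 against -0.085), and 0 passed at 12 months against 6 months. The summed level of the 15 was 75.6 to 116 CPM at 1 week, 37.5 to 68.4 at 6 weeks, 37.3 to 44.2 at 6 months, 36.0 to 45.3 at 12 months and 34.2 to 42.1 at 14 months. The tested miR-132-3p, known from active neurons, averaged 2.38, 8.16, 4.88, 4.05 and 6.96 CPM from the youngest to the oldest age. The neuronal miR-9-5p averaged 4.87 CPM at 1 week and 1.15 to 1.60 CPM at each later age. The part of nervous tissue in the level of miR-137-3p was not tested.

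Of 22 testis miRNAs 20 are in the table and 3 were tested. At 6 months against 1 week miR-547-3p (2.08 ± 0.59, adjusted p = 0.00269) and miR-741-3p, both of an X-linked cluster expressed in male germ cells, rose, and miR-449a-5p of ciliated and germ cells fell (-3.17 ± 0.67, edgeR adjusted p = 0.000152). Of all tested entries 36.8% rose and 37.9% fell there. The median of the 3 was 2.08, against 0.12 for all tested entries. The counts of miR-741-3p, from the youngest to the oldest age, were 0, 7, 71, 364 and 284. The 20 summed to 7.75 to 17.2 CPM at 1 week, 3.26 to 13.3 at 6 weeks, 16.7 to 39.3 at 6 months, 40.9 to 183 at 12 months and 45.0 to 95.3 at 14 months. Of the 20 entries, the number without any count was 14, 10, 4, 1 and 3 over the same ages. The summed level was thus higher at 12 and 14 months, the ages at which miR-383-5p was lowest. At 12 months miR-741-3p alone averaged 44.3 CPM, beside a mean sum of 90.3 CPM. The same entries rose and fell at 12 months against 1 week, where 33.2% of all rose and 38.4% fell. At 12 months against 6 months 0 of the 3 tested entries passed. The part of the testis miRNAs in the changes of the 4 miRNAs was not tested.

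Of 12 miRNAs of surface epithelium and eye, all in the table, 10 were tested. At 6 months against 1 week 1 rose and 6 fell, where 36.8% of all tested entries rose and 37.9% fell (median -0.75 against 0.12), with the skin miRNA miR-203-3p at 1.87 ± 0.16 (edgeR adjusted p = 2.35e-10) and the epithelial miR-429-3p at -2.08 ± 0.26 (adjusted p = 8.30e-08). At 12 months against 1 week 2 rose and 5 fell, where 33.2% of all rose and 38.4% fell, and at 12 months against 6 months 0 passed. Their summed level was 1308 to 1722 CPM at 1 week, 1260 to 1497 at 6 weeks, 1401 to 1812 at 6 months, 1381 to 1775 at 12 months and 1474 to 1820 at 14 months. The eye miRNAs miR-204-5p and miR-211-5p averaged 0.517 and 0.471 CPM at 1 week and 0.354 CPM or less at each later age. For pancreas 3 of 5 entries in the table were tested, and 1, the islet miRNA miR-375-3p, fell at 6 months against 1 week (-3.34 ± 0.73, adjusted p = 0.000215) and at 12 months against 1 week (-4.74 ± 0.80, adjusted p = 8.70e-06). This 1 of 3 is near the share of all entries that fell, 37.9% at 6 months and 38.4% at 12 months. Summed, the pancreas entries had 268 to 1246 CPM at 1 week and 578 to 918 CPM in the adult libraries, nearly all of it from miR-7a-5p and miR-7b-5p, which other tissues express too.

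Of 11 hepatocyte miRNAs 10 are in the table, and all 10 were tested. At 6 months against 1 week 8 rose and 0 fell, where 36.8% of all tested entries rose and 37.9% fell (median 1.57 against 0.12), led by miR-194-5p (2.61 ± 0.13, edgeR adjusted p = 5.98e-15). At 12 months against 1 week 8 rose and 1 fell, where 33.2% of all rose and 38.4% fell, and at 12 months against 6 months 0 passed. The summed level in TMM-scaled CPM ran from 400138 to 572381 at 1 week and from 622373 to 973708 in the adult libraries. Most of each sum was miR-122-5p, whose share of raw counts was 56.1 to 67.5% at 1 week and 53.9 to 62.0% in the adult libraries. The gap between the sums was thus not present in the raw shares of miR-122-5p. Whether a difference in hepatocyte makeup contributes to the 1-week comparisons of the 4 miRNAs was not tested.

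The miRNAs most like each of the 4 were sought by Pearson correlation of log2 CPM over the 20 adult libraries, among the other named entries that were tested, as a description. The 20 include the 10 libraries of 6 weeks and 14 months that chose the 4 miRNAs, so likeness along that difference is partly built in. All 20 share depth and age differences, so part of each value is common to many entries. With log2 library total miR-137-3p itself had r = 0.81 over these libraries, miR-184-3p 0.58, miR-3065-5p 0.53 and miR-383-5p -0.56, and centring within ages does not remove depth. Nearest to miR-137-3p were miR-29a-3p (r = 0.94, Spearman rho = 0.95), miR-29c-3p (r = 0.94, rho = 0.95) and miR-107-3p (r = 0.89, rho = 0.88), and within ages the correlations were 0.87, 0.87 and 0.80. Over all 25 libraries miR-107-3p ranked 171st in likeness, and the other two were the nearest. The miR-29 family represses collagen and other matrix genes, and its a and c forms have nearly equal counts here. Nearest to miR-184-3p were miR-29b-3p (r = 0.85, rho = 0.75), miR-592-5p (r = 0.85, rho = 0.63) and miR-194-5p (r = 0.80, rho = 0.67), at 0.35, 0.59 and 0.28 within ages.

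Nearest to miR-3065-5p were miR-222-3p (r = 0.85, rho = 0.57), miR-29b-3p (r = 0.83, rho = 0.75) and miR-101c (r = 0.82, rho = 0.75), at 0.42, -0.030 and 0.30 within ages. For miR-383-5p the nearest were miR-181a-5p (r = 0.72, rho = 0.70), miR-690 (r = 0.68, rho = 0.61) and miR-677-5p (r = 0.64, rho = 0.38), at 0.22, 0.026 and 0.54 within ages. Over all 25 libraries miR-690 ranked 160th and miR-677-5p 28th, and for miR-383-5p, miR-184-3p and miR-3065-5p only 1 of the 3 nearest was shared with the 3 nearest over 25 libraries. Within ages the values were higher for miR-137-3p than for the rarer 3. Among themselves miR-184-3p and miR-3065-5p had r = 0.75 over the 20 adult libraries and -0.30 within ages.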

How the data were processed

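Small RNA of 25 libraries was analysed from 1 table of raw counts that the authors deposited, 1493 entries of which 1095 have a mouse miRNA name; Bowtie, edgeR and mm10 are named without versions in the submitters' processing notes. Use of molecular identifiers, strand and the miRNA annotation are not given in the sources used here.

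Counts were fitted with edgeR 4.0.16 in R 4.3.3: TMM factors, filterByExpr (391 entries tested, 1102 not), 1 robust quasi-likelihood model of the 5 ages, contrasts with Benjamini-Hochberg adjustment over all tested entries at 0.05. Each SE was obtained by dividing the log2 fold change by the root of its F statistic. DESeq2 1.42.0 was an alternative. Pooled shares have exact binomial intervals (scipy 1.17.1).

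Among 50 pairs of libraries of 1 age 0 were identical. Mouse numbers are the last numbers of the library titles, and nothing else marks libraries as separate animals. The p-values measure the spread between libraries. The members and lists were chosen with earlier results of these data known. Named were the 4 miRNAs, their partner arms, list entries passing the test (up to 4 per list and comparison), and the 3 miRNAs most correlated with each (prior count 2); further list entries were named after their values were seen. The sequence tables of RefSeq (GRCm38.p6) matched 3 of the 4.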

Additional observations from a re-analysis of the deposited data

Results flagged for a closer look

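Levels of the 4 miRNAs and of miR-338-3p were screened in each age for a library far from the other 4, in 25 groups; chance marks about 1 in 20 groups. At 14 months the library of mouse 25 had 17.9 CPM of miR-3065-5p (53 counts), above the 12.4 to 13.8 CPM of the other 4, a gap of 0.749 of the whole range. At 12 months the library of mouse 16, the shallowest of its age, had 82.7 CPM of miR-338-3p (67 counts), the lowest of its age, with a gap of 0.731 of the range.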

How the results depend on the processing

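No paired analysis was possible because each title number, taken as a mouse, belongs to 1 age only. Of 213 alternative values of the 4 miRNAs in the 3 tested comparisons, 212 kept their direction and their side of the threshold; the exception was miR-184-3p at 6 months against 1 week with library totals alone (0.91, adjusted p = 0.117). With only the 2 compared ages in the fit, the filter removed miR-3065-5p from both comparisons with 1 week and miR-383-5p from 12 months against 6 months, so these have no value. At 12 months against 6 months, 3 entries passed with no filter on low counts and 0 otherwise. At 14 months against 6 weeks 15 of 391 tested entries passed. The number was 9 of 391 with TMMwsp factors, 24 of 1493 with no filter and 7 of 391 with log2 library total as a covariate. It was 9 of 339 over named entries only and 28 of 246 with only those ages in the fit. With 1 library left out it was 8 to 22, of 407 to 428 tested entries (8 without mouse 23, 24 or 25). In that comparison miR-137-3p was at 0.58 with library total as a covariate, and the cause was not tested. At 12 months against 1 week the calls were 76 higher and 202 lower with library totals alone, against 130 and 150 with TMM factors. Library totals alone also moved called values by over 1.5-fold: at 12 months against 1 week to 2.36 for miR-137-3p, 2.16 for miR-3065-5p and -6.75 for miR-383-5p. DESeq2 gave -6.60 for miR-383-5p there, and the depth covariate gave 3.62 for miR-137-3p at 6 months against 1 week. Depth limits miR-184-3p and miR-3065-5p at 6 weeks and miR-383-5p from 12 months on, where libraries hold 7, 2 and 3 counts or fewer.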

Other observations

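In 7 entries, 1.79% of those tested, the 15 libraries of 6 months and older all exceeded the 6-week libraries in observed CPM. These were miR-184-3p, miR-3065-5p, miR-29b-3p, miR-101c, miR-194-5p, miR-222-3p and miR-741-3p. For miR-3065-5p the separation is not resolved for at least mouse 14 and mouse 19. The 3 entries with all older libraries below the 6-week ones, 0.767% of those tested, were miR-383-5p, miR-409-5p, of the imprinted Dlk1-Dio3 cluster, and miR-1839-3p. Only miR-383-5p and miR-409-5p were also below every 1-week library, or 0.512% of tested entries. These miRNAs were named after their values were seen. The 6-week libraries and those of the oldest age had also chosen miR-383-5p, miR-184-3p and miR-3065-5p. The place of these chosen miRNAs among the separated entries is thus partly built in.

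Several X-linked relatives of miR-741-3p that were too scarce to be tested had counts almost only in older libraries. The entry miR-743a-3p had 0, 0, 10, 89 and 93 counts from the youngest to the oldest age. For miR-465a-3p the counts were 0, 0, 5, 46 and 50, and for miR-871-3p 0, 0, 4, 39 and 49.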
